A study of Mus musculus with 2 samples.

Results

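The genes described are the 4 Notch receptor genes (Notch1, Notch2, Notch3 and Notch4), 4 genes of their membrane-bound ligands (Dll1, Dll4, Jag1 and Jag2) and 2 target genes (Hes1 and Hey1). They were taken by symbol from the arrays' gene names, with every probe of each, which gave 10 genes and 13 probes out of 34761 genes and 55677 probes in all. LPS-treated CMT93 cells, given 3 µg/mL of lipopolysaccharide for 24 h, were compared with control CMT93 cells on 1 one-colour Agilent array each. CMT93 is a mouse carcinoma line that the labels trace to the rectum of a C57BL/ICRF mouse aged 19 months. Both cultures grew in DMEM, and the sources used here name no vehicle for the control cells. The labels give both samples the same treatment text, so the dose and time are assigned to the LPS-treated cells by the samples' titles. Because each group was a single array of a single line, no difference has a replicate check, no test was run between them, and precision is limited by there being only 2 arrays.

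Notch is a receptor that is cut when it binds a ligand on a neighbouring cell. An ADAM protease and then gamma-secretase release its inner part, which enters the nucleus, joins the DNA-binding protein RBPJ and a Mastermind co-activator, and switches on genes such as Hes1 and Hey1, which encode transcriptional repressors. In the intestine this pathway keeps stem and absorptive progenitor cells from becoming secretory cells, because HES1 represses the secretory master gene Atoh1. Dll1, Dll4 and Jag1 are ligands known from the crypt, while Dll4 and Notch4 are best known from blood vessels and Notch3 from the mural cells around them.

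The results turn on the probes of the following genes, of which the first 30 of 60 bases are given, 5′ to 3′ as the files give them. Those of Dll4, Jag1 and Hes1 gave the largest differences among the 8 measured members, that of Jag2 belongs to the measured ligand that did not share them, and the 2 probes of Notch2 did not give the same difference. All positions are on mm9, the build that the file headers name, and whether a probe lies in a coding exon or elsewhere in the transcript was not analysed here.
Dll4, chr2:119160779-119160838, plus strand: tttgcccagactccatcctcacagctgggc
Jag1, chr2:136907433-136907492, minus strand: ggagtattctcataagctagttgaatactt
Jag2, chr12:114146887-114146946, minus strand: ttgtataaattattcaacggctgtcaggcg
Hes1, chr16:30067820-30067879, plus strand: ttaaaatatcttcctttggggaagtttatt
Notch2, first probe, chr3:97953914-97953973, plus strand: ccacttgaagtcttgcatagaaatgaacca
Notch2, second probe, chr3:97951233-97951292, plus strand: tcttcaccacactctgcatctgactggtca
The GC content of the whole 60-base probes was 55.0% for Dll4, 36.7% for Jag1, 41.7% for Jag2 and 26.7% for Hes1. It was 41.7% for the first and 55.0% for the second Notch2 probe. Whether the differences go with GC content was not tested.

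Of the 10 genes, 8 were measured, meaning that each array called its brightest probe well above background, and none of the 13 probes lost a spot to a quality flag. Intensities below are the processed spot signals, and each log2 difference is LPS-treated minus control after every array was set relative to its own 75th percentile, which stood at 629.5 on the LPS array and 649.5 on the control array. The ± beside a difference is the SD between repeated spots of probes of similar brightness, which measures error within a slide and none between cultures. Brightness depends on the probe, so levels were not compared between genes.

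The ligand genes divided. Dll4 and Jag1 were about 2-fold lower in LPS-treated cells, Jag2 was close to its control value, and Dll1 was not detected. Dll4, which encodes a Delta-type ligand of crypt and vessel cells, had an intensity of 140 in LPS-treated cells, against 308 in control cells. Its log2 difference was -1.09 ± 0.09, or 2.13-fold lower. Jag1, which encodes a Serrate-type ligand, had an intensity of 483 in LPS-treated cells, against 969 in control cells. Its log2 difference was -0.96 ± 0.06, or 1.95-fold lower, so it lay just inside 2-fold. Both differences were many times the spread between spots, and each rested on 1 probe and 1 spot per array. With another background correction (normexp) Dll4 stood at -0.84, inside 2-fold.

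Jag2, the second Serrate-type ligand gene, had an intensity of 286 in LPS-treated cells, against 274 in control cells. Its log2 difference of 0.11 ± 0.09 was about the size of the spread between spots. Dll1, the other Delta-type ligand gene, was printed as 10 spots of 1 probe. These had a median intensity of 4.09, from 3.40 to 10.2, in LPS-treated cells, against a median of 3.83, from 3.38 to 11.8, in control cells. None of the 10 spots was well above background on either array, 2 on each passed the looser flag of a positive and significant signal, and the second Dll1 probe was also not well above background. Dll1 was therefore not detectable here. The lowest intensity called well above background was 16.9 on the LPS array and 15.9 on the control array.

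**Figure D1:**
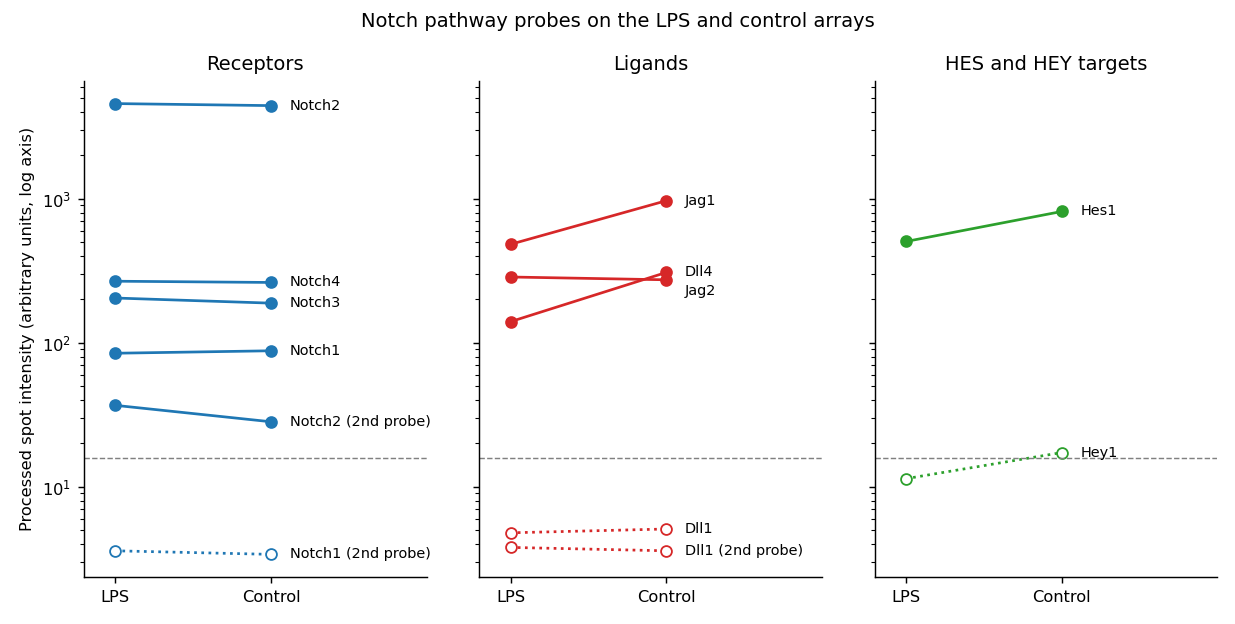
Processed spot intensity (log axis, arbitrary units) of all 13 probes on the LPS array, left, and the control array, right, by role. Filled points with solid lines are probes well above background on both arrays, open points with dotted lines are not, and the dashed line is the lowest intensity called well above background on the control array, 15.9. The lines of Dll4, Jag1 and Hes1 are lower at the LPS end, while those of the receptors and Jag2 are nearly level.

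The target gene Hes1, which encodes the repressor that Notch most directly controls in the gut, was also lower. It had an intensity of 505 in LPS-treated cells, against 815 in control cells. The log2 difference was -0.65 ± 0.06, or 1.57-fold lower, and it too came from 1 probe. Hey1, the related repressor gene, stood at an intensity of 11.4 in LPS-treated cells, against 17.3 in control cells. It was not well above background on either array, although it passed the looser flag on both, so no fold is given.

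The 4 receptor genes were all measured, and their differences ran from -0.01 to 0.16 on the log2 scale. Notch1, the main receptor of intestinal stem cells together with Notch2, had an intensity of 84.6 in LPS-treated cells, against 88.0 in control cells, a log2 difference of -0.01 ± 0.14. A second Notch1 probe was not well above background on either array. Notch3 had an intensity of 205 in LPS-treated cells, against 188 in control cells, a log2 difference of 0.16 ± 0.09. Notch4 stood at 267 in LPS-treated cells, against 262 in control cells, a log2 difference of 0.07 ± 0.08. For Notch1 and Notch4 the difference was within the spread between spots, and for Notch3 it was less than 2 times that spread.

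Notch2 was measured by 2 probes. On the brighter one it had an intensity of 4573 in LPS-treated cells, against 4426 in control cells, a log2 difference of 0.09 ± 0.04. The dimmer one gave 36.8 in LPS-treated cells, against 28.3 in control cells, a log2 difference of 0.42 ± 0.15. Both lay above 0 and under 1.5-fold, and they differed from each other by more than either spread between spots. Which of them is nearer to the level of the transcript was not tested.

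**Figure D2:**
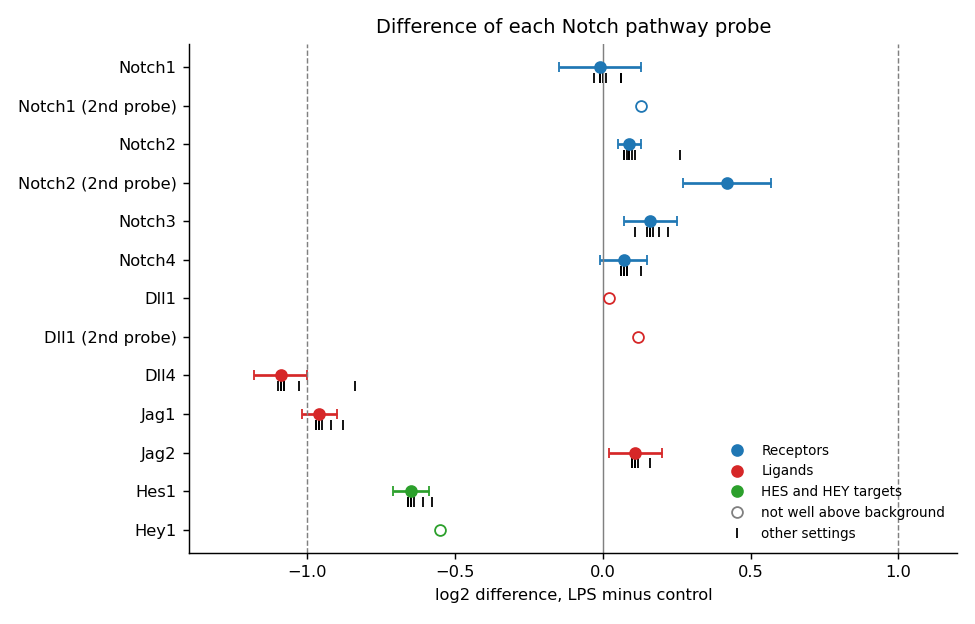
The log2 difference, LPS minus control, of each probe of the 10 genes. Bars are the SD between repeated spots of similar brightness, and open points are probes not well above background on both arrays. Short black ticks are the gene's value under the other processing settings, which include the median over all its probes. Dashed lines mark 2-fold. Dll4 (-1.09), Jag1 (-0.96) and Hes1 (-0.65) stand left of the other measured probes.

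At 2-fold, 1 of the 8 measured members, Dll4, was lower and 0 were higher, and at 1.5-fold 3 of 8, Dll4, Jag1 and Hes1, were lower and 0 were higher. Over all 20380 measured genes, 0.569% were at least 2-fold lower and 1.46% at least 2-fold higher, while 2.65% were at least 1.5-fold lower and 3.59% at least 1.5-fold higher. The median difference of the 8 members was 0.03, beside -0.02 over all measured genes, so the middle of the set describes the receptors and Jag2 and not the 3 lower genes. A difference as low as that of Dll4 was seen in 0.461% of measured genes, one as low as that of Jag1 in 0.618% and one as low as that of Hes1 in 2.02%. Among genes within 1 log2 unit of the same brightness these shares were 0.655%, 0.426% and 1.63%. By contrast, 68.4% of all measured genes lay within 0.2 of 0, as did 5 of the 8 members. The members were few and share a pathway, so these shares describe the 2 arrays only.

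**Figure D3:**
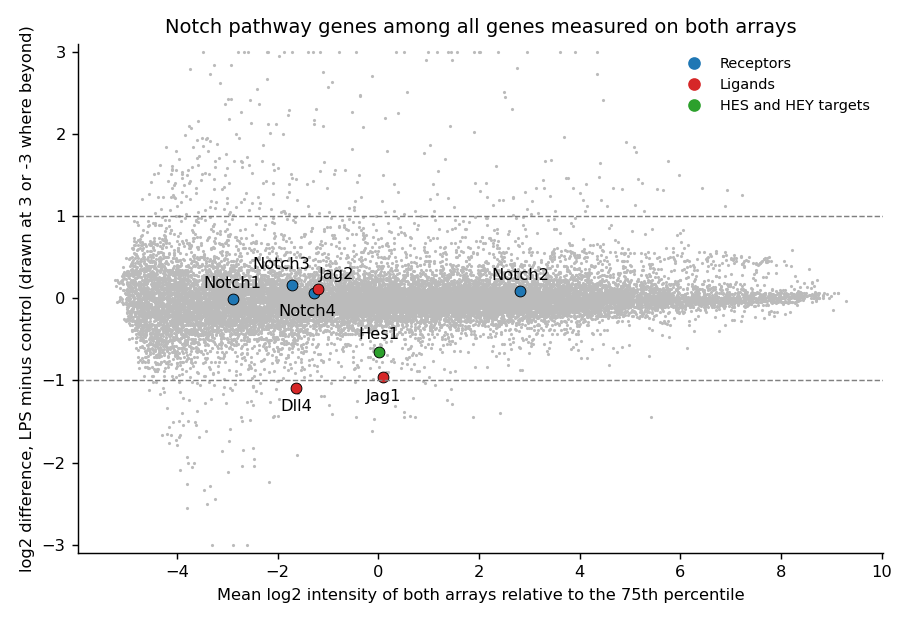
Log2 difference, LPS minus control, against mean brightness for the 20380 genes measured on both arrays (grey) and the 8 measured Notch genes (coloured by role), with values beyond 3 drawn at the edge and dashed lines at 2-fold. Dll4 lies below the lower line at -1.09, Jag1 just above it at -0.96 and Hes1 at -0.65, while the receptors and Jag2 lie within the grey band.

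Of the measured genes around the lower members, none was 2-fold different. Within 250 kb of the Dll4 probe on mm9, 19 other genes were measured, with a median log2 difference of -0.05 and a range from -0.53 to 0.90. The same window held 2 measured genes for Jag1, at -0.18 and -0.15, and 7 for Hes1, from -0.59 to 0.35. Dll4, Jag1 and Notch1 all lie on chromosome 2, at log2 differences of -1.09, -0.96 and -0.01.

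The promoters of the 2 lower ligand genes are given because these genes differed alike. No promoter sequence was found for Hes1, the other lower gene. They are RefSeq sequences of GRCm38.p6, a build other than that of the probe positions, from 250 bases before to 50 after the start of the gene and written in its direction. Capitals mark matches to the motifs searched on both strands.
Dll4, chr2:119325534-119325833, plus strand: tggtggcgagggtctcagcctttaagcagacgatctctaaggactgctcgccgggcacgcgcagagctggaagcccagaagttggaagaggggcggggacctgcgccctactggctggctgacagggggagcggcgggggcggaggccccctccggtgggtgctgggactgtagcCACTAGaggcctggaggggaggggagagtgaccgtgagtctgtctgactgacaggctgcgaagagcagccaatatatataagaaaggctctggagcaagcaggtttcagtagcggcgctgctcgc
Jag1, chr2:137116471-137116770, minus strand: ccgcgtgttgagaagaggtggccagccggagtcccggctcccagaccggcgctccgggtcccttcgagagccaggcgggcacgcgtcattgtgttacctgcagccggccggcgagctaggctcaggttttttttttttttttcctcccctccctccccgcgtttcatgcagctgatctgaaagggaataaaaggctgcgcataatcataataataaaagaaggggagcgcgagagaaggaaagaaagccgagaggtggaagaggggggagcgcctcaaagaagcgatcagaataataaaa
The motifs were TGGGAA, the core bound by RBPJ, CACGTG, the E box, CACNAG, the N box bound by HES proteins, and the NF-kB consensus. The Dll4 window held 1 match, an N box at position -75 from the start, and the Jag1 window held 0. Of all 32851 promoter windows, 25.6% held TGGGAA, 7.15% CACGTG, 42.5% CACNAG and 4.51% the NF-kB consensus. CACNAG and CACGTG share their first letters but cannot match at the same place on the same strand. The windows of Dll4 and Jag1 had GC contents of 63.7% and 55.7%, that of Jag2 86.0%, and the median over all windows was 52.7%. A match of letters is a description and not a binding site.

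Among the other genes of the pathway, 69 of 70 on the lists had a probe and 55 were measured. Of these, 0 were at least 2-fold higher and 1, the secretory lineage gene Spdef, was at least 2-fold lower, beside 1.46% higher and 0.569% lower over all measured genes, and the median over the 55 was 0.04. Most genes of any kind thus lay inside 2-fold, so these counts set the pathway apart in neither direction. The lists were chosen with earlier results of these data known and stand here as description.

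All 10 genes that modify ligands and receptors were measured, with a median log2 difference of 0.08. Lfng, which encodes a Fringe glycosyltransferase that tunes which ligand a receptor answers, was lowest at -0.22 ± 0.06. Rfng, another Fringe gene, was highest at 0.19 ± 0.03, and its other measured probe gave 0.56. All 8 genes of the ADAM proteases and gamma-secretase that had a probe were measured, with a median of 0.06. Psen2, which encodes a catalytic subunit of gamma-secretase, was lowest at -0.13 ± 0.05, and Aph1b, a subunit gene of the same enzyme, was highest at 0.36 ± 0.05, with 0.31 on its other measured probe.

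Of 7 nuclear complex genes, all measured, the median was 0.17. Maml2, a Mastermind co-activator gene, was highest at 0.65 ± 0.15, with an intensity of 68.4 in LPS-treated cells, against 45.0 in control cells. Its relative Maml3 was lowest at -0.31 ± 0.05, although a dimmer probe of it gave -0.06. Rbpj itself stood at 0.10 ± 0.05 and 0.38 on its 2 measured probes. Of 17 inhibitor and corepressor genes 16 were measured, with a median of 0.03, from Tle3, a Groucho-type corepressor gene through which HES proteins act, at -0.36 ± 0.03, to Spen, a corepressor gene of the RBPJ complex, at 0.20 ± 0.04.

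Other family members and targets lay on both sides of 0. Of 13 such genes 9 were measured, 3 above 0 and 6 below, with a median of -0.17. Hes6, which encodes a HES protein that opposes HES1, was lowest at -0.49 ± 0.04, with an intensity of 4050.5 in LPS-treated cells, against 5869 in control cells. Hes5, a classical Notch target, was highest at 0.76 ± 0.15, with an intensity of 43.5 in LPS-treated cells, against 26.4 in control cells. Nrarp, which encodes a feedback inhibitor induced by Notch, stood at -0.08 ± 0.13. Hes3 read 17.3 in LPS-treated cells, where it was not well above background, against 55.3 in control cells, where it was. On these readings of 1 dim probe its log2 difference was -1.63 ± 0.32, or 3.09-fold lower. Hey2, Heyl and Olfm4 were well above background on neither array.

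Of 4 further ligand genes, Dlk2, which encodes a non-canonical ligand, stood at 0.40 ± 0.06, with 0.62 on its other measured probe, and Dll3 at 0.04 ± 0.15. Dlk1 passed the background call in control cells alone, with a bound of 1.42-fold lower in LPS-treated cells. On the log2 scale this bound was -0.50, close in size to the spread between spots of 0.48. Dner passed the call on neither array.

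**Figure D4:**
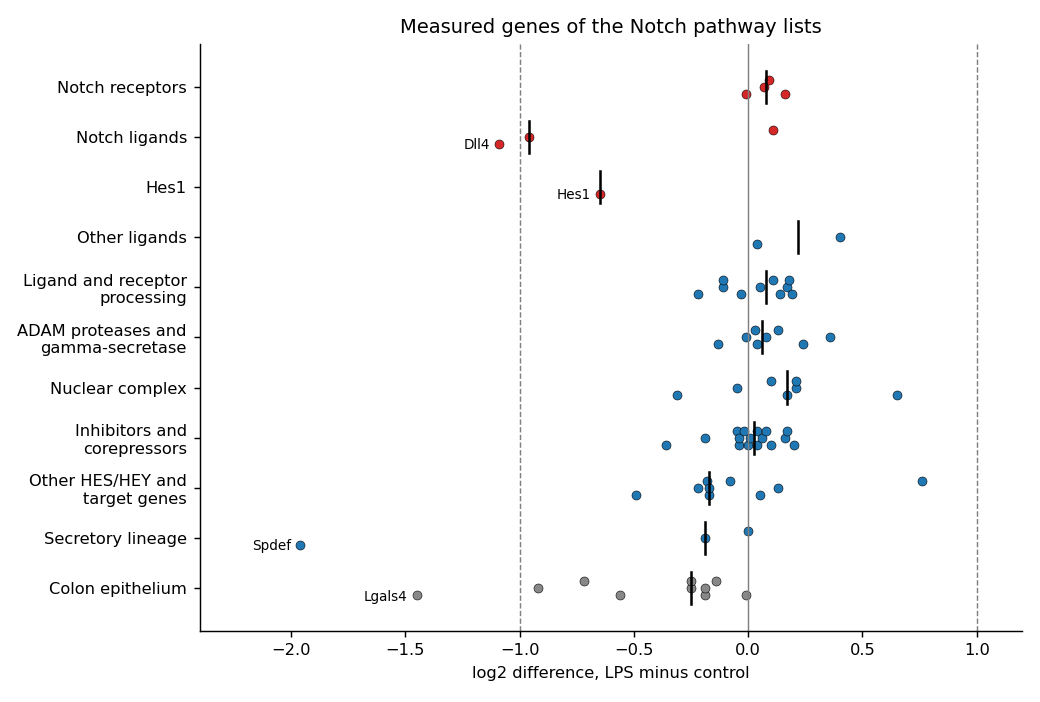
Log2 difference, LPS minus control, of the measured genes in each Notch list, with the colon epithelial markers below them. Each point is a gene, black bars are list medians and dashed lines mark 2-fold. Apart from Dll4 (-1.09), Jag1 (-0.96), Hes1 (-0.65) and Spdef (-1.96), the Notch lists lie between -0.49 and 0.76.

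The secretory lineage, which HES1 holds back, gave few values. Atoh1, Neurog3, Neurod1, Muc2, Tff3 and Fcgbp were well above background on neither array, so 6 of the 10 genes gave no level. Spdef, whose product drives goblet cell maturation downstream of Atoh1, had an intensity of 57.6 in LPS-treated cells, against 232 in control cells, a log2 difference of -1.96 ± 0.12. Gfi1, a repressor gene that also acts below Atoh1, stood at -0.19 ± 0.03 and the goblet product gene Clca1 at -0.00 ± 0.03, although a dimmer probe of Clca1 gave -0.74. Agr2 passed the background call in control cells alone. On its readings the log2 difference was -1.05 ± 0.32, or 2.07-fold lower in LPS-treated cells. Lower Hes1 thus stood beside secretory genes that were lower, close to 0 or not detected. None of the 3 measured ones was above 0, with Clca1 within its spread of 0. Over all measured genes 9089 of 20380 were above 0, and 3 genes are too few to compare with that share.

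Cell type markers were read beside these values, since in a bulk sample fewer cells of a type and less RNA per cell cannot be told apart. Both samples were cultures of the single line CMT93, so a reading of another cell type's marker does not show that such cells were present. Of 11 colon epithelial markers 10 were measured, with a median of -0.25. They ran from the intestinal lectin gene Lgals4 at -1.45 ± 0.03 to Cdh1 at -0.01 ± 0.03, which was within its spread. All 10 lay below 0, while 9089 of all 20380 measured genes lay above 0. At 1.5-fold 3 of the 10 were lower, beside 2.65% of all measured genes. Krt8, Krt18 and Krt19 stood at -0.19, -0.14 and -0.19. The summed intensity of all 11 listed markers was 668139 in LPS-treated cells, against 800678 in control cells. The intestinal regulator gene Cdx2 was well above background on neither array. Dll4, Jag1 and Hes1 stood at -1.09, -0.96 and -0.65, beside this list's median of -0.25. With each group a single array, whether these genes vary with the markers could not be seen and was not tested.

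Of 8 endothelial markers 3 were measured, Kdr, Egfl7 and Pecam1, from -0.06 to 0.05. Kdr had an intensity of 5362 in LPS-treated cells, against 5359 in control cells, and Pecam1 of 70.7, against 71.4. The other listed genes, Cdh5, Tek, Tie1, Cldn5 and Emcn, were well above background on neither array. The summed intensity of the list was 6761 in LPS-treated cells, against 6861 in control cells. Of 8 fibroblast and mural cell markers 4 were measured, with a median of 0.62. Acta2 (1.02), Col1a2 (0.91) and Col1a1 (0.33) were higher and Vim was lower, at -0.43, and Vim, at an intensity of 11521 in LPS-treated cells, against 16016 in control cells, made up most of the summed intensity of 11923 in LPS-treated cells, against 16290 in control cells. The others went opposite ways or gave no level. Pdgfrb passed the background call in LPS-treated cells alone, at least 1.73-fold higher. Pdgfra passed it in control cells alone, at least 1.96-fold lower in LPS-treated cells. These bounds leave out the spread between spots, 0.62 for Pdgfrb and 0.55 for Pdgfra on the log2 scale. Rgs5 and Dcn passed the call on neither array. Of 7 macrophage markers 2 were measured, Csf1r at 0.06 and Cd68 at 0.30. Csf1r had an intensity of 1587 in LPS-treated cells, against 1575 in control cells, and Cd68 of 1273, against 1064. The list summed to 2916 in LPS-treated cells and 2718 in control cells. Lyz2, Tyrobp and Laptm5 were well above background on neither array. Adgre1 passed in LPS-treated cells alone, at least 1.96-fold higher, and the leukocyte marker Ptprc in control cells alone, at least 3.03-fold lower in LPS-treated cells. All 5 measured genes chosen to check the treatment were at least 2-fold higher in LPS-treated cells, beside 1.46% of all measured genes. They ran from Nfkbia at 2.74 ± 0.03 to Lcn2 at 9.26. No ± is given for Lcn2, which read 62548 in LPS-treated cells, against 105 in control cells. Saa3 passed the background call in LPS-treated cells alone, at 76052 against 10.6. This list was chosen with earlier results of these data known, so it is description and not a check.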

How the data were processed

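Processed spot intensity values were deposited by the authors, made with Agilent Feature Extraction 10.10.1.1 (background-subtracted and detrended, per the file headers), for 1 LPS and 1 control array. The background flags (0 or 1, another deposited value) came from the same files, per the file headers. From 59305 non-control spots, 223 flagged on either array were left out, and from the log2 intensity of each remaining spot the 75th percentile of its array was taken away. Well above background were 54.7% of spots on the LPS array and 55.8% on the control array, and 0 were saturated. Spots of a probe were averaged, and a gene took its brightest probe. Symbols were updated through RefSeq accessions of GRCm38.p6, which matched 28026 of 55677 probes (50.3%). The error was the median SD over the 50 nearest in brightness of 254 probes above background that were printed as 10 spots. Brightness was the mean over both arrays, so the error can be too small for a gene far dimmer on 1 array. For genes not above background on both arrays, all 399 probes printed as 10 spots were used. No test between the groups was made, each being 1 array.

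The named genes are all 10 members, and of each pathway list every gene at least 2-fold different and the highest and lowest measured one. Others (Rbpj, Nrarp, Gfi1, Clca1, the remaining Dlk1, Dll3 and Dner, markers and genes not detected) were added after their values were seen. The members and lists were chosen with earlier results of these data known. For a gene above background on 1 array, the fold is a bound, taken against the dim array's lowest well-above-background value. Where the probe read more than that on the dim array, as for Hes3 and Agr2, the fold is that of the readings themselves. That lowest value is not a detection limit, since these probes read above it and were not called. The bounds leave out the spread between spots. Alternatives were normexp with an offset of 50, median centring, quantile, cyclic loess (span 0.7), the percentile over detected probes, the median over probes, 3 filters and 1.5-fold. The normalizations ran in limma 3.58.1 (R 4.3.3), and the rest in Python 3.11.15, numpy 2.4.6, pandas 2.3.3 and matplotlib 3.10.9. Promoters were found for 8 of the 10 members, and not for Hes1 and Hey1.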

Additional observations from a re-analysis of the deposited data

How the results depend on the processing

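Under the alternatives that counted them, Dll4, Jag1 and Hes1 ranged from -1.10 to -0.84, -0.97 to -0.88 and -0.66 to -0.58. Jag2, Notch2, Notch3 and Notch4 ranged from 0.10 to 0.16, 0.07 to 0.26, 0.11 to 0.22 and 0.06 to 0.13. All alternatives reprocess the same 2 arrays, and the filters change no gene's value, so a constant sign is no independent support. In the main setting Notch4 was within the spread between spots, and Jag2 was about its size. Notch1 ran from -0.03 to 0.06. Jag1 reached 2-fold under none. With normexp 0 of 8 members were 2-fold different, since Dll4 stood at -0.84, and 207 genes were, 170 higher and 37 lower. When genes dimmer than the median were left out, Notch2 was the only member counted, so 0 members and 0 pathway genes were 2-fold different, with 109 of all genes, 94 higher and 15 lower. At 1.5-fold 3 members were lower, 3 pathway genes differed, 2 of them higher, and 1272 genes did, 731 higher and 541 lower. Without the background filter 6 pathway genes differed 2-fold, 2 higher and 4 lower, and 2540 genes, 1362 higher and 1178 lower. With the looser flag 4 pathway genes did, all lower, and 1302 genes, 747 higher and 555 lower. The filters set which genes are counted, and the cause of the normexp shift was not tested. No paired analysis was possible because each group had 1 array. Dll1, Hey1 and other genes near background are limited by signal.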
